A study of Rattus norvegicus with 12 samples.

Results

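The nuclear-encoded genes of respiratory complex I were examined in heart RNA from 12 rats, 3 each of the groups named Sham, HF, HFE and BAIBA. Members were the rows of the deposited gene table whose symbol begins with Nduf and whose counts summed over the 12 rats reached 10, which gave 47 of 34700 genes. One further row, a second one named Ndufa10l1, held 2 counts and was left out. The rats were male Sprague-Dawley rats operated on at 8 weeks of age, and hearts were taken 12 weeks after surgery. In the HF, HFE and BAIBA groups the left anterior descending artery was tied off to cause an infarct and heart failure, and in the Sham group a thread was passed without being tied. The HF rats had the infarct and no exercise. The methods describe an exercise study and a BAIBA study, each with Sham and HF groups. The labels do not say from which study the Sham and HF rats came. For the BAIBA experiment the methods give Sham and HF rats water by gavage, while the supplement names BAIBA for the Sham and HF groups, and the labels and methods were followed here. The HFE rats had the infarct and were trained by treadmill running, 60 min per session and 5 sessions a week, over 8 weeks. The BAIBA rats had the infarct and received β-aminoisobutyric acid, a small molecule that working skeletal muscle releases, by gavage at 75 mg/kg/day for 8 weeks. All libraries were made from poly(A) RNA of the anterior wall of the left ventricle, and the sources differ on the site: the methods name the area around the infarct for the BAIBA group only, and another passage of the study names it for the HF and BAIBA groups. Treatment and sampling site cannot be told apart in BAIBA against HFE and BAIBA against Sham. Because the sources differ on the HF group, the site is not settled for BAIBA against HF, HFE against HF or HF against Sham. The tissue was bulk myocardium, in which fewer cardiomyocytes and less RNA of a gene in each cardiomyocyte cannot be told apart.

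Complex I (NADH:ubiquinone oxidoreductase) is the entry point of electrons from NADH into the respiratory chain of the inner mitochondrial membrane, and it pumps protons as it passes those electrons to ubiquinone. Its matrix arm holds the flavin, the iron-sulphur clusters and the core subunits that nuclear genes encode, its membrane arm is built around core subunits encoded in mitochondrial DNA, and many accessory subunits from nuclear genes surround both arms. Assembly factors join the modules and do not stay in the finished enzyme. The heart, which depends on oxidative phosphorylation, is among the tissues richest in these transcripts. By role, the 47 genes were 7 core subunits, 9 accessory subunits of the matrix arm, 18 accessory subunits of the membrane arm, the acyl carrier protein Ndufab1, 8 assembly factors, 2 genes that carry the name without a place in complex I (Ndufa4, a subunit now assigned to cytochrome c oxidase, and its relative Ndufa4l2) and 2 rows without a fixed role (Ndufa10l1 and a second row named Ndufv3). No row was named Ndufa10 or Ndufb1.

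The start regions of 5 members are shown because the results below turn on these genes. Ndufaf8, Ndufb7 and Ndufa5 had the lowest p-values across the 4 groups, Ndufs1 lay on the opposite side in the HFE rats, and Ndufa1 was present in some rats and nearly absent from others. Each window is from RefSeq (build GRCr8), runs 5′ to 3′ from 250 bases before to 50 bases after the start of the gene, and has in capitals each match to 1 of 5 motifs searched on both strands. The motifs were NRF1 (GCGCATGCG or GCGCACGCG), ERR (TCAAGGTCA), ETS (CCGGAAG), YY1 (AAGATGGCG) and Sp1 (GGGCGG), and a match is a description of letters, not a shown binding site. The windows lie at chr10:105879658-105879957 (plus strand), chr19:41477242-41477541 (minus strand), chr4:53971186-53971485 (minus strand), chr9:72073556-72073855 (minus strand) and chrX:121293506-121293805 (minus strand), in that order.
Ndufaf8: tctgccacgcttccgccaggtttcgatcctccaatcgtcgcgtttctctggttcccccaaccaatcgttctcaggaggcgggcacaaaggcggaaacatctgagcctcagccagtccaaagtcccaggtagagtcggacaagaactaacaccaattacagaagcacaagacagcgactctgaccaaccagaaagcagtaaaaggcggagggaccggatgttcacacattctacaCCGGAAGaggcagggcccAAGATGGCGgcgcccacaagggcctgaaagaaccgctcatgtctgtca
Ndufb7: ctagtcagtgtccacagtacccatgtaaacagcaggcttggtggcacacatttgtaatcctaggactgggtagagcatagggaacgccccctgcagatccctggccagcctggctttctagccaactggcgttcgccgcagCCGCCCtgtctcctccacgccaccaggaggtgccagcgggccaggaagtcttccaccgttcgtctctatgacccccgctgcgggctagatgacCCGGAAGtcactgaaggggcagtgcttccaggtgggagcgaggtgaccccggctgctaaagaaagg
Ndufa5: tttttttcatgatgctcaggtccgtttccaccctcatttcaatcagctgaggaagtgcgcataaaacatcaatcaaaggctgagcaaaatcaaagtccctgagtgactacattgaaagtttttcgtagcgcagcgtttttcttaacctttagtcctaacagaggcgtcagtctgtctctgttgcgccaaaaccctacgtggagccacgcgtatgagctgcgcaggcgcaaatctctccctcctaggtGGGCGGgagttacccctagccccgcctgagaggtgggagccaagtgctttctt
Ndufs1: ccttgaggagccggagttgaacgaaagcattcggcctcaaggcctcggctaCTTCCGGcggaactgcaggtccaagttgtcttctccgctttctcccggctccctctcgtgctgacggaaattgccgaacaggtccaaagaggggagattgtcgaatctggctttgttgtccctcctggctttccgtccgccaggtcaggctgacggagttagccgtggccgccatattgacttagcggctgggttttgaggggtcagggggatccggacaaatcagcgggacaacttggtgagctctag
Ndufa1: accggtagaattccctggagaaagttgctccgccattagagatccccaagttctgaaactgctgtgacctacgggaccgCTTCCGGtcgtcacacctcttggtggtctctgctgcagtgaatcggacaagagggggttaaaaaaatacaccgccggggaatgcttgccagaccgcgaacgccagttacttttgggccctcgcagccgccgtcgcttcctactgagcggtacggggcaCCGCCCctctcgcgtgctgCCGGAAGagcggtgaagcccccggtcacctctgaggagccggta

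Ndufaf8 held an ETS and a YY1 match next to its start, Ndufb7 an ETS and a Sp1 match, Ndufa5 a Sp1 match, Ndufs1 an ETS match and Ndufa1 a Sp1 and a pair of ETS matches. Windows were found by symbol for 41 of the 46 member symbols, and the other 5 were not used here. A YY1 match stood in 19.5% of member windows against 1.7% of all 33469 windows, an NRF1 match in 14.6% against 3.0%, an ETS match in 22.0% against 8.7% and a Sp1 match in 46.3% against 33.1%. The same search covered 38 windows of nuclear genes of complexes II to V. There the shares were 7.9% for YY1, 15.8% for NRF1, 34.2% for ETS and 36.8% for Sp1, so those of NRF1 and ETS were not particular to complex I. An ERR match was in 0 of 41 member windows, in 0.4% of all windows and in 5.3% of those of complexes II to V. The 8 YY1 matches (Ndufa2, Ndufa6, Ndufa9, Ndufaf8, Ndufb8, Ndufs4, Ndufs6 and Ndufs7) all began between base 3 and base 27 after the start, where 52.6% of the windows with this motif in the genome had it after the start. Member windows were richer in G and C (median 57.0%) than all windows (51.7%), and those of complexes II to V had a median of 55.7%. The part of base composition in these shares was not tested.

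Within the heart the members covered a wide range of levels, read here as FPKM, fragments scaled by gene length and library size, which allow genes of different length to be compared. Core subunits lay between a mean of 168 FPKM over the 12 rats for Ndufs7, which carries the last iron-sulphur cluster before ubiquinone, and 488 FPKM for Ndufv2, a partner of the flavin-bearing Ndufv1. Ndufv1 itself averaged 412 FPKM, and Ndufs1, the largest core subunit, averaged 353 FPKM. Among matrix arm accessory subunits Ndufa5 was highest at 480 FPKM, and among membrane arm accessory subunits Ndufb9 was highest at 565 FPKM. Leaving out Ndufs6, the 34 core, accessory and acyl carrier genes spanned 14.1-fold, from Ndufa12, a matrix arm subunit, at 40.2 FPKM to Ndufb9, with a median of 226 FPKM. Ndufab1, the mitochondrial acyl carrier protein that sits in both arms and also serves fatty acid synthesis, averaged 113 FPKM. The assembly factors were lower, with a median of 15.9 FPKM, from Ndufaf2 at 5.70 FPKM to Ndufaf8 at 81.2 FPKM, so that by their means 7 of the 8 lay below every subunit other than Ndufs6. Ndufa4 averaged 566 FPKM while its relative Ndufa4l2 averaged 9.62 FPKM, and Ndufa10l1 averaged 198 FPKM.

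**Figure D1:**
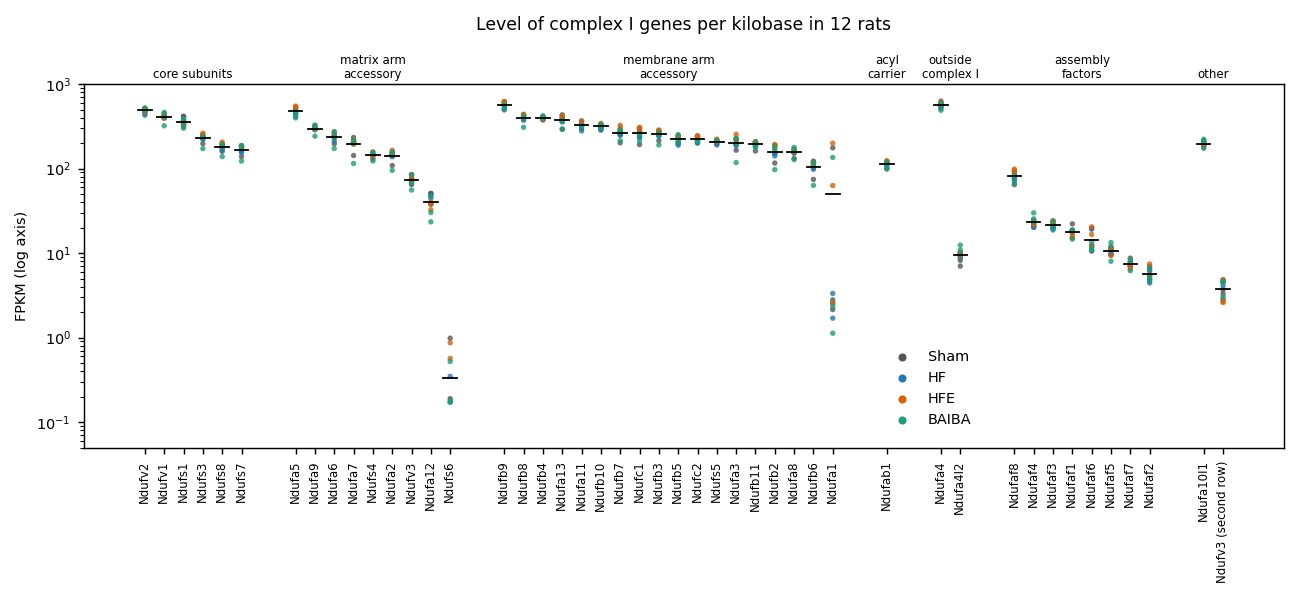
FPKM of 46 members in the 12 rats on a log axis, grouped by role, with points coloured by group and a bar at the mean of the 12 rats; values of 0 (3 rats for Ndufs6) are not drawn. Most subunits lie between 100 and 565 FPKM and most assembly factors below 30, and only Ndufa1 splits into rats near 2 FPKM and rats above 60.

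Ndufa1, which encodes a small membrane arm subunit needed for assembly of the enzyme, did not behave as a graded transcript. It had between 4 and 14 counts in 8 rats and 558 counts in Sham rat 3, 644 in HFE rat 2, 221 in HFE rat 3 and 476 in BAIBA rat 3. As library-scaled counts (CPM, TMM-scaled), these 4 rats had 36.6, 44.6, 14.0 and 28.7 CPM, and no other rat passed 0.741 CPM. Each of the Sham, HFE and BAIBA groups therefore held rats of both kinds, and the HF group held 3 rats with low counts. The widest ratio between rats among members with at least 100 counts on average was that of Ndufa1 (200-fold), against 1.45-fold for the median member and 1.19-fold for the steadiest, Ndufb4, another membrane arm subunit. The row counts a stretch of 213 nt, and another row that the table describes as the same subunit (LOC108348144) held 2 to 19 counts per rat.

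Ndufs6, an accessory subunit of the iron-sulphur region, had 23 counts in all, with 0 to 6 in each rat, and never passed the filter on low counts. A pair of rows described as iron-sulphur protein 6 were counted more often: LOC679739 held 14 to 92 counts per rat and LOC100912599 held 17 to 111. The number of the first is the one RefSeq now gives to the protein-coding Ndufs6, and reads of near-identical copies may be divided among such rows, so the level of this subunit is uncertain here. LOC679739 was highest in Sham rat 3 (92 counts, with 14 to 29 in the other 11 rats) and LOC100912599 in BAIBA rat 3 (111 counts) and HFE rat 2 (60 counts). Copies may likewise share reads with other members, and the second row named Ndufv3 held 244 counts in all.

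Library totals were between 14812541 and 19732588 counts per rat, and the members took between 0.743% and 0.924% of them. Mitochondrially encoded protein genes took 30.4% to 36.0%. To see how the members moved together, the median of their log2 deviations from each gene's mean over the 12 rats was taken in each rat. It was -0.15, -0.03 and 0.08 in the Sham rats, -0.08, -0.03 and 0.02 in the HF rats, 0.09, 0.15 and 0.14 in the HFE rats, and -0.04, -0.21 and 0.04 in the BAIBA rats. The 3 HFE rats stood above the other 9, although Sham rat 3 came within the rounding of HFE rat 1 (0.084 against 0.085). In the HFE rats 35, 42 and 38 of the 46 members that passed the filter exceeded their own mean. This count did not set the group apart, since it was 39 in Sham rat 3 and 31 in BAIBA rat 3, and it was lowest in Sham rat 1 (6), BAIBA rat 2 (7) and HF rat 1 (8). BAIBA rat 2 also had the lowest share of counts on members and the highest on mitochondrially encoded protein genes. The medians of all genes under 1000 nt were -0.067 in Sham rat 1, -0.070 in BAIBA rat 2 and 0.059 to 0.095 in the HFE rats, while those of all tested genes stayed between -0.004 and 0.012. In BAIBA rat 1, HF rat 3 and BAIBA rat 3 the short genes lay on the other side of 0 (0.039, -0.005 and -0.002) from the members (-0.042, 0.020 and 0.042). Of the 47 members 29 are under 1000 nt, and the part of gene length in their level was not tested.

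**Figure D2:**
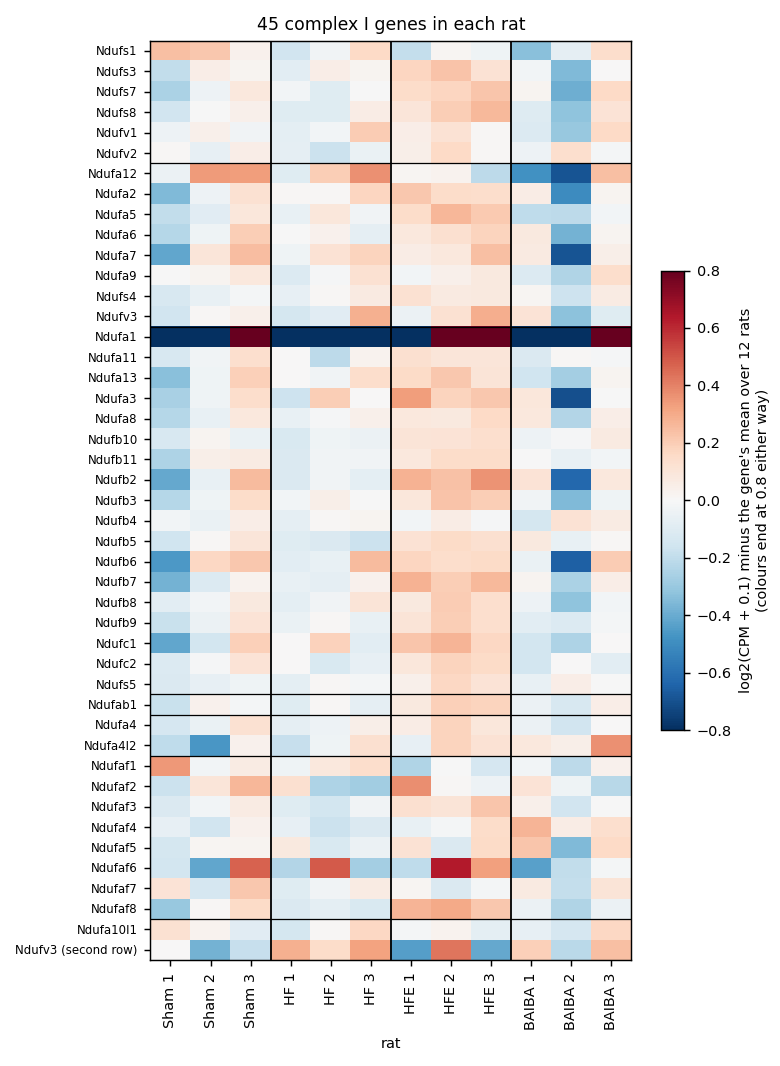
log2(CPM + 0.1) of 45 members in each rat relative to the gene's mean over the 12 rats, in rows by role and columns by rat; colours end at 0.8 either way and Ndufs6 and 1 core subunit are not drawn. The 3 HFE columns and those of Sham 3 and BAIBA 3 are above the mean for most members (31 to 42 of 46), Sham 1, HF 1 and BAIBA 2 are below it for most, and the row of Ndufa1 switches between rats.

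The first question was whether infarction alone altered the complex I genes, and the HF and Sham groups were close to each other. Of the 45 members tested, 22 were higher and 23 lower in HF, with a median log2 fold change of -0.00 (all 14957 genes tested: 0.01). None was called, where a call needed a Benjamini-Hochberg adjusted p under 0.05 from edgeR's quasi-likelihood test over all genes and a change of more than 1 on the log2 scale in either direction, and the calls over all genes were 0%. The same was so without a limit on the fold change, with 0% of all genes. At an unadjusted p under 0.05 there were also 0 members, while 2.47% of all genes were higher and 3.53% lower by this rule. The groups did not overlap in 1 member that was higher and 0 that were lower (5.25% and 6.55% of all genes).

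Ndufs1, the largest core subunit, was measured at 1026, 1009 and 891 CPM in the Sham rats and at 783, 852 and 972 CPM in the HF rats. The ranges overlapped, and the log2 fold change was -0.17 (standard error 0.11, adjusted p = 0.840, edgeR). Ndufv1, the flavin subunit that accepts electrons from NADH, had 643, 682 and 648 CPM in the Sham rats and 627, 653 and 762 CPM in the HF rats, a log2 fold change of 0.05 (standard error 0.10). Ndufab1 had 256, 296 and 286 CPM against 271, 292 and 276 CPM, and Ndufa4 had 405, 427 and 482 CPM against 422, 431 and 457 CPM. Both genes showed log2 fold changes that round to 0.00, with standard errors of 0.09. The members with the lowest p-values were the second row named Ndufv3 (log2 fold change 0.46, standard error 0.30, adjusted p = 0.837) and Ndufa2, a matrix arm subunit (0.14, standard error 0.12), among those higher in HF. The row of Ndufv3 rested on 1.06 ± 0.15 CPM in the Sham rats and 1.46 ± 0.10 CPM in the HF rats (SD, n = 3). Lower in HF were Ndufs1 and Ndufb5, a membrane arm subunit (-0.12, standard error 0.09). With a median standard error of 0.10 over the members, a shift of the size of 1 standard error could not be told from none in this design. Shifts of several standard errors could also go uncalled after adjustment over all genes. In HFE against HF, Ndufaf8 had a log2 fold change of 0.37 (standard error 0.08) with an adjusted p of 0.627 (edgeR).

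The effect of exercise training was read from HFE against HF, and here most members were higher in the trained rats by a small amount. Of the 46 members tested, 40 were higher and 6 lower in HFE, with a median log2 fold change of 0.14 against -0.01 over all 14938 genes. No member passed the call, with or without the limit on the fold change (0% of all genes by either rule), and the lowest adjusted p was 0.627. At an unadjusted p under 0.05, 14 members were higher (4.34% of all genes) and 0 were lower (3.29% of all genes). The 3 HFE rats lay above the 3 HF rats without overlap in 22 members (8.26% of all genes) and below them in 0 (6.16% of all genes). Ndufa1 is among the 14. It passed the filter on low counts through HFE rats 2 and 3 together with HF rat 3 (14 counts). It would not have passed without the 2 HFE rats. Without Ndufa1, 39 of 45 members were higher and 6 lower, with a median log2 fold change of 0.14, and 13 had an unadjusted p under 0.05.

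Ndufaf8, an assembly factor that works with Ndufaf5 on the Ndufs7 subunit, had the lowest p-value. It was measured at 33.7, 34.5 and 33.5 CPM in the HF rats and at 44.0, 45.1 and 42.4 CPM in the HFE rats. All HFE rats were above all HF rats, with 0.37 as the log2 fold change (standard error 0.08, p = 0.00162, adjusted p = 0.627, edgeR), and the two-sided exact permutation test gave 0.1, the smallest p that 3 rats against 3 allow. Ndufb2, a small membrane arm subunit, followed with 65.4, 69.6 and 67.2 CPM in HF and 85.9, 83.3 and 90.8 CPM in HFE, a log2 fold change of 0.36 (standard error 0.08). Ndufb7, at the intermembrane face of the membrane arm, had 141, 139 and 150.2 CPM in HF and 178, 168 and 175 CPM in HFE (log2 fold change 0.28, standard error 0.07). Ndufab1 also separated the groups, with 306, 331 and 328 CPM in the HFE rats and a log2 fold change of 0.20 (standard error 0.08).

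By role, all 18 membrane arm accessory subunits tested were higher in HFE (median log2 fold change 0.18), as were 6 of 7 core subunits (0.17), 7 of 8 matrix arm accessory subunits (0.09) and 6 of 8 assembly factors (0.19). The 18 include Ndufa1, which was tested only because of its counts in HFE rats, so its direction was set by the filter. None of these differences passed adjustment. Ndufs1 was the core subunit on the other side, with 759.8, 879.5 and 849 CPM in the HFE rats and a log2 fold change of -0.07 (standard error 0.10). Ndufv1 had 686, 716 and 667 CPM, inside the range of the HF rats (0.02, standard error 0.09). Ndufa4 had 461, 501 and 473 CPM, all above the HF rats (0.13, standard error 0.08). The lower members with the lowest p-values were Ndufaf1, an early assembly factor (-0.19, standard error 0.10), and Ndufa12 (-0.22, standard error 0.13), and both overlapped between the groups. Ndufa1 had a fitted log2 fold change of 5.15 with a standard error of 1.56 (adjusted p = 0.627), from 0.533, 44.6 and 14.0 CPM in HFE against 0.344, 0.552 and 0.741 CPM in HF.

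Short genes in general were also higher in HFE by their median. The part of gene length in the shift of the members was not tested, and the sets of all genes given here include the members. The median log2 fold change of HFE against HF was 0.07 over the 2000 tested genes under 1000 nt and -0.02 over the 12938 longer ones. Members under 1000 nt had a median of 0.17 (28 genes), and members of 1000 nt or more had one of 0.10 (18 genes), so in both length classes the members' median was above that of all genes. Leaving out 1 rat at a time kept the median of the members between 0.13 and 0.17, and the members with an unadjusted p under 0.05 fell from 14 to 8 without any single HF rat, to 6 without HFE rat 2 and to 5 without HFE rat 3. Over all genes the count was 1139 with every rat and 1538, 1079 and 864 without HF rat 1, 2 or 3. It was 896 without HFE rat 2 and 931 without HFE rat 3.

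**Figure D3:**
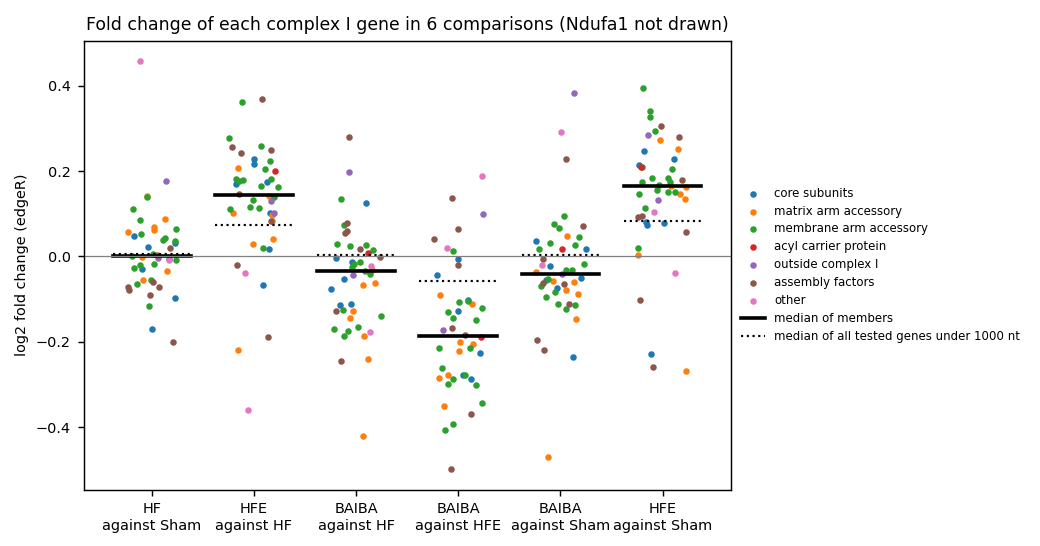
log2 fold change of each tested member (points, coloured by role) in the 6 comparisons, with the median of the members as a solid bar and the median of all tested genes under 1000 nt as a dotted bar; Ndufa1 is not drawn. The members centre near 0 in HF against Sham, above 0 in both comparisons of HFE with HF or Sham, and below 0 in BAIBA against HFE, and in the comparisons with HFE the dotted bar lies on the same side of 0, closer to it.

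Against Sham the HFE rats showed a like picture, and this comparison shares its HFE rats with the one above. Of 46 members, 41 were higher in HFE and 5 lower, with a median log2 fold change of 0.16 (0.01 over all 14804 genes). Without Ndufa1, 40 of 45 were higher and 5 lower. Again none was called, with or without the fold limit (0% of all genes by either rule), and the lowest adjusted p was 0.292. At an unadjusted p under 0.05 there were 11 members higher (6.04% of all genes) and 1 lower (5.15% of all genes). The groups did not overlap in 16 higher members (9.5% of all genes) and 1 lower member (8.24% of all genes), which was Ndufs1. Ndufb7 was measured at 113, 136 and 149 CPM in the Sham rats, all below the HFE rats (log2 fold change 0.39, standard error 0.10, adjusted p = 0.292, edgeR, with 0.1 in the exact permutation test). Ndufa5, a matrix arm subunit, had 228, 245 and 278 CPM in Sham and 289, 314 and 302 CPM in HFE (0.27, standard error 0.09). Ndufs1 was lower in every HFE rat than in every Sham rat (-0.23, standard error 0.09, adjusted p = 0.385), and Ndufa12 was at -0.27 (standard error 0.12). Sham rat 1 and Sham rat 3 pulled this comparison in opposite ways: 3 members had an unadjusted p under 0.05 without rat 1 and 27 without rat 3, and the median was 0.09 and 0.22. Over all genes 1147 of 15129 were under this limit without rat 1 and 1784 of 15120 without rat 3, against 1656 of 14804 with every rat. The count of members fell to 4, 6 and 7 without HFE rat 2, HFE rat 3 and either HFE rat 1 or Sham rat 2. Over all genes it was 1411, 1639 and 1446 without HFE rat 2, 3 or 1, and 1402 without Sham rat 2. Genes under 1000 nt had a median of 0.08 over all 1954 tested.

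**Figure D4:**
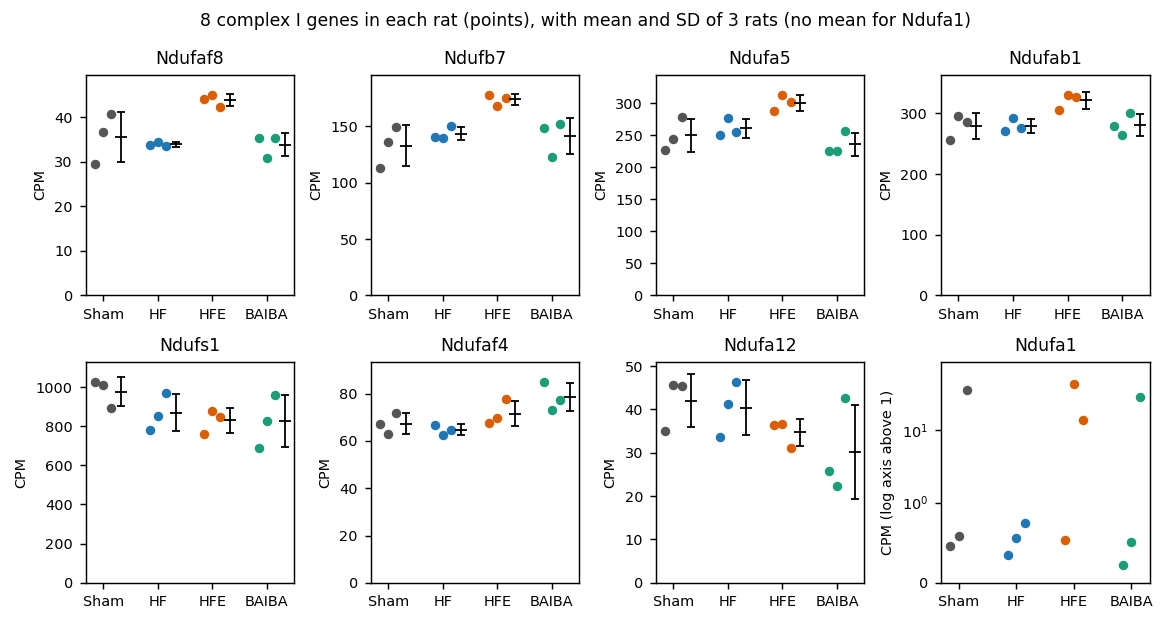
CPM of 8 members in each rat, with points for rats and, at the right of each group, the mean and SD of 3 rats (not for Ndufa1, whose axis is logarithmic above 1). The HFE rats are the highest for Ndufaf8, Ndufb7, Ndufa5 and Ndufab1, the BAIBA group has the highest mean for Ndufaf4, and Ndufa1 separates rats within groups.

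Whether BAIBA altered these genes in the failing heart was read from BAIBA against HF. The members were spread around a median log2 fold change of -0.03 (all 15039 genes: -0.01), with 14 higher and 31 lower among 45 tested. None was called, and none had an adjusted p under 0.05 (0% of all genes by either rule). At an unadjusted p under 0.05 there was 1 higher member (2.81% of all genes) and 0 lower ones (2.73% of all genes). The groups did not overlap in 3 higher members (6.01% of all genes), Ndufaf4, Ndufb5 and Ndufv2, and in 1 lower member (5.37% of all genes), Ndufb3. Ndufaf4, an assembly factor of an early membrane-bound intermediate, had 67.0, 62.3 and 64.7 CPM in the HF rats and 85.0, 73.3 and 77.3 CPM in the BAIBA rats. Its log2 fold change was 0.28 (standard error 0.10, p = 0.0233, adjusted p = 0.852, edgeR), and the exact permutation test gave 0.1. Ndufb5 was at 0.13 (standard error 0.10). Ndufa12 had 25.7, 22.3 and 42.6 CPM in the BAIBA rats and 33.7, 41.2 and 46.3 CPM in the HF rats, so that BAIBA rats 1 and 2 lay below every HF rat and rat 3 did not (-0.42, standard error 0.25). Ndufa13, a membrane arm subunit, was at -0.18 (standard error 0.11). The direction of the median rested on BAIBA rat 2, without which it was 0.02, and it was -0.11 without BAIBA rat 3.

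Of the genes followed in each comparison, Ndufs1 had 690.4, 827 and 959 CPM in the BAIBA rats, the widest spread of the 4 groups (-0.08 against HF, standard error 0.15). Ndufv1 ranged likewise from 537 CPM in BAIBA rat 2 to 741 CPM in BAIBA rat 3 (-0.11, standard error 0.15). Ndufab1 had 279.8, 264.5 and 300.1 CPM, and Ndufa4 had 429, 398 and 445 CPM, both within 0.05 of the HF group on the log2 scale.

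The 2 interventions were compared directly as BAIBA against HFE, with the HFE rats in common with the comparisons above. The methods describe them as separate studies and give gavage for the BAIBA study only. Treatment, study and gavage cannot be told apart in this comparison. Of 46 members, 39 were lower in BAIBA than in HFE and 7 higher, with a median log2 fold change of -0.19 (0.00 over all 14844 genes). Without Ndufa1, 38 of 45 were lower and 7 higher. No member was called (0.0808% of all genes) or had an adjusted p under 0.05 without the fold limit (0.108% of all genes). With the replicate number as a block, over all genes 17 were called higher and 15 lower and 50 had an adjusted p under 0.05, and again 0 of these calls were members. The lowest adjusted p of a member without the block was 0.248. At an unadjusted p under 0.05, 10 members were lower (4.88% of all genes) and 0 higher (4.68% of all genes). The groups did not overlap in 22 lower members (8.37% of all genes) and 0 higher ones (7.13% of all genes). Ndufa5 had 226, 225.3 and 257 CPM in the BAIBA rats, all below the HFE rats (-0.35, standard error 0.09, adjusted p = 0.248, edgeR, with 0.1 in the exact permutation test). Ndufaf8 had 35.4, 30.9 and 35.3 CPM, also below every HFE rat (-0.37, standard error 0.10, adjusted p = 0.250). On the higher side the lowest p-values were those of Ndufaf4 (0.14, standard error 0.10) and Ndufa4l2 (0.10, standard error 0.16), and both overlapped. By role the medians were -0.24 for the 18 membrane arm subunits, -0.21 for the 8 matrix arm accessory subunits, -0.13 for the 7 core subunits and -0.09 for the 8 assembly factors. Without BAIBA rat 2 the median was -0.12 and 5 members had an unadjusted p under 0.05. The same count was 5, 4 and 4 without HFE rat 1, 2 or 3, and 15 without BAIBA rat 3. Over all genes it was 1420 with every rat and 1470 without BAIBA rat 2. It was 1310, 997 and 1256 without HFE rat 1, 2 or 3, and 1290 without BAIBA rat 3. All tested genes under 1000 nt had a median of -0.06 and members of 1000 nt or more one of -0.12.

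BAIBA against Sham compared the treated infarcted hearts with hearts that had no infarct. The median log2 fold change of 45 members was -0.04 (0.00 over all 14920 genes), with 15 higher and 30 lower, and no member was called or had an adjusted p under 0.05 (0.0402% of all genes by either rule). At an unadjusted p under 0.05 there was 1 higher member (4.13% of all genes) and 0 lower (3.28% of all genes), and the groups did not overlap in 2 higher members (6.52% of all genes) and 0 lower (6.17% of all genes). These 2 were Ndufaf4, with 67.0, 63.2 and 71.8 CPM in the Sham rats (0.23, standard error 0.10, adjusted p = 0.672, edgeR), and Ndufa4l2, which is known as a gene induced in low oxygen. Ndufa4l2 had 7.79, 6.48 and 9.19 CPM in the Sham rats and 9.54, 9.30 and 11.6 CPM in the BAIBA rats (0.38, standard error 0.18). Ndufa12 was at -0.47 (standard error 0.25) and Ndufs1 at -0.24 (standard error 0.13), both with overlap. The median was 0.03 without BAIBA rat 2 and 0.04 without Sham rat 3, so its sign rested on single rats.

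Across all 4 groups in one fit, 0 of 46 members had an adjusted p under 0.05 (0% of all 15617 genes) and 4 had an unadjusted p under 0.05 (9.71% of all genes), a share of 8.7% of the members. The lowest were Ndufa5 (adjusted p = 0.411), Ndufaf8 (adjusted p = 0.411) and Ndufb7 (adjusted p = 0.447, edgeR), and the other one was Ndufaf4. In a count added after the values were seen, the 3 HFE rats stood above the other 9 rats in 9 members (1.54% of all genes), which were Ndufa5, Ndufab1, Ndufaf3, Ndufaf8, Ndufb10, Ndufb11, Ndufb5, Ndufb7 and Ndufs3, and below them in 0 (0.845% of all genes). For the Sham, HF and BAIBA groups the same counts of members were 0 above (0.512%, 0.519% and 0.8% of all genes) and 0 below (0.538%, 0.685% and 0.852% of all genes).

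The other genes of the respiratory chain put these shifts in context. Of 46 tested nuclear genes of complexes II to V, 43 were higher in HFE than in HF, with a median log2 fold change of 0.15, and 17 had an unadjusted p under 0.05, among them Atp5f1e, a subunit of ATP synthase (0.31, standard error 0.07, adjusted p = 0.627), and Cox7c, a subunit of cytochrome c oxidase (0.35, standard error 0.09). In BAIBA against HFE 42 of 46 were lower (median -0.13), in HF against Sham 34 of 46 were lower (-0.04), and in none of the 6 comparisons did one of them have an adjusted p under 0.05. The 7 mitochondrially encoded complex I subunits lay on the other side: all 7 were lower in HFE than in HF (median -0.10), and Mt-nd4 had the lowest p of these (-0.34, standard error 0.13, adjusted p = 0.635). Their summed level was 57660 to 77460 CPM in the HFE rats and 68160 to 74310 CPM in the HF rats, and the ranges overlapped. Of 11 assembly factors with other names, 8 were higher in HFE than in HF and 0 had an unadjusted p under 0.05. The 11 regulators of nuclear mitochondrial genes had 7 higher and 4 lower in the same comparison with 0 below that limit, and in BAIBA against HFE all 11 were lower (median -0.13), again with 0 below it. Esrra, which encodes an estrogen-related receptor that drives mitochondrial genes, was the highest of the 11 in HFE against HF at 0.25 and was at -0.15 in BAIBA against HFE. It had 72.2, 69.9 and 82.1 CPM in the HF rats and 87.7, 79.9 and 99.7 CPM in the HFE rats, which overlapped. In the BAIBA rats it had 94.6, 56.0 and 90.1 CPM, so that only BAIBA rat 2 lay below the HFE rats. Ppargc1a, the coactivator of this programme, was at 0.01 and -0.04 in the same comparisons.

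**Figure D5:**
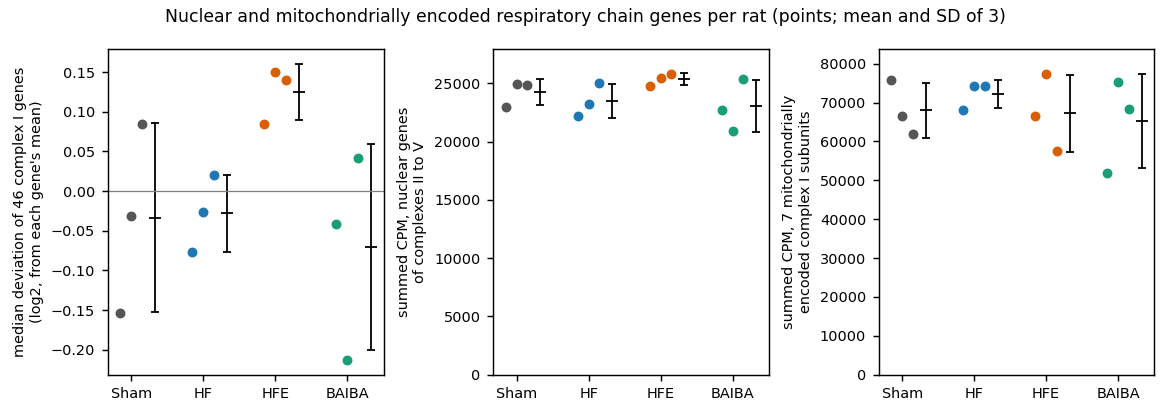
For each rat (points, with the mean and SD of 3 at the right), the median log2 deviation of 46 members from their own means, the summed CPM of nuclear genes of complexes II to V, and the summed CPM of the 7 mitochondrially encoded complex I subunits. The 3 HFE rats are highest in the first panel (0.09 to 0.15), while in the panel of mitochondrially encoded subunits their range of 57660 to 77460 CPM covers that of the HF rats.

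The tissue label held, since all 8 cardiomyocyte markers were present at summed levels of 48440 to 59380 CPM. In HFE against HF, 3 of the 8 had an unadjusted p under 0.05, all higher, and the summed level was 48440 to 51160 CPM in HF, 49010 to 55500 CPM in HFE, 57550 to 59380 CPM in Sham and 49070 to 56960 CPM in BAIBA. Macrophage and leukocyte markers were lower in HFE than in HF for 4 of 4 genes with 0 below that limit (50.8 to 83.1 CPM against 62.9 to 141 CPM), and fibroblast markers for 4 of 5 genes, with 1 gene, higher, below it. In BAIBA against HFE, 4 of 4 erythroid markers were higher, 3 of them with an unadjusted p under 0.05 (901.5 to 1298 CPM against 698 to 823 CPM), and 3 of 3 endothelial markers were lower, 2 of them by this limit (315 to 524 CPM against 493 to 597 CPM). Fibroblast markers were higher for 5 of 5 genes there, 2 of them by this limit (1251 to 1788 CPM against 970.1 to 1318 CPM), macrophage and leukocyte markers for 4 of 4, 1 of them by it (65.0 to 128 CPM), and adipocyte markers for 2 of 2, 1 of them by it (up to 24.8 CPM against up to 6.33 CPM). Of 8 cardiomyocyte markers 1 was higher and 1 lower by this limit, and of the mesothelial ones 1 was higher. In HFE against Sham, fibroblast markers were lower for 5 of 5 genes, 3 of them by this limit (1313 to 1404 CPM in Sham), macrophage and leukocyte markers for 3 of 4, 2 of them by it (62.7 to 83.4 CPM in Sham), and endothelial markers higher for 3 of 3, 2 of them by it (425 to 469.7 CPM in Sham). There 3 cardiomyocyte markers were higher and 2 lower by this limit, 1 of 4 erythroid markers was higher and 1 mesothelial marker lower. In HFE against HF the endothelial (2 of 3 higher), erythroid (3 of 4 lower), smooth muscle (3 of 3 higher), adipocyte (2 of 2 lower) and atrial markers (2 of 3 higher) had 0 genes below that limit, as did the 1 mesothelial gene tested. Atrial markers ranged from 12.3 to 538 CPM over the 12 rats and differed within groups, and Upk3b, a mesothelial marker, was at 0 in all HFE rats and at 10.5, 0.0641 and 6.21 CPM in the BAIBA rats. In HF against Sham, 7 of 8 cardiomyocyte and 4 of 5 fibroblast markers were lower, 2 of each with an unadjusted p under 0.05. In BAIBA against HF, 1 cardiomyocyte and 1 atrial marker were lower by this limit. In BAIBA against Sham, 4 of 4 erythroid markers were higher and 3 of 4 atrial markers lower by it. There 1 fibroblast and 1 mesothelial marker were also higher by it, and 1 cardiomyocyte marker lower. The part of these markers in the shifts of complex I genes was not tested.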

How the data were processed

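Left ventricular RNA of 12 rats was sequenced by the authors as paired-end poly(A) libraries, aligned with HISAT2 and counted on genes with featureCounts. The deposited raw counts were not normalized. The authors also deposited FPKM, which scale those counts by gene length and library size, and the tables that repeat a value held 0 differences. The labels name mm9, a mouse build, while the gene identifiers are from rat, so no coordinates were taken from the files, and strand use in counting is not given in the sources used here. Promoter windows came from RefSeq (GRCr8). Samples were grouped by their labels, which give the group and a replicate number. Nothing in the labels pairs rats of different groups.

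Each comparison was fitted on the 2 groups compared with edgeR 4.0.16 in R 4.3.3 (TMM, filterByExpr, robust quasi-likelihood, Benjamini-Hochberg adjustment over all genes tested). A standard error is the fitted log2 difference over the root of its F statistic. CPM used TMM factors over the 12 rats. Named genes were also compared by two-sided exact permutation of log2(CPM + 0.1) over 20 assignments. Alternatives were DESeq2 1.42.0, limma 3.58.1 on log2(FPKM + 1) and log2(FPKM + 0.1), other scalings and filters, mitochondrially encoded genes left out, all 12 rats in one fit, the replicate block and each rat left out. The 2-group edgeR, DESeq2 and limma fits and the replicate block were run on counts simulated from HF and HFE with known fold changes. The permutation test, the fit across 4 groups, the counts of groups without overlap and the motif search were not. Rats of a group differed by more than sampling noise (chi-square per degree of freedom 12.6 to 36.5).

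Members and lists were chosen with earlier results of these data known. Genes were named by rule: Ndufs1, Ndufv1, Ndufab1, Ndufa4 and Ndufa4l2; in each comparison the members with an adjusted p under 0.05, or, with none, the 2 lowest p-values in each direction; the highest and lowest mean FPKM of each role; the widest and narrowest range among members with at least 100 mean counts; and the 3 lowest p-values across the 4 groups. Genes named outside it (in the text on groups that did not overlap, on copies, on other lists and in the HFE count) were chosen after their values were seen. Same-numbered rats of BAIBA and HFE had deviations correlated at 0.174, 0.224 and 0.118, all over 0.1, and those of the other comparisons at -0.082 to 0.124. One member enters the counts and medians and is not reported by itself here. The marker Pecam1 and the assembly factor Coa1 were not found by symbol. The cell type markers and the mitochondrially encoded, assembly, regulator and complexes II to V lists were counted only.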

Additional observations from a re-analysis of the deposited data

How the results depend on the processing

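The count of members called was 0 in each of the 6 comparisons and across the 4 groups, and it was 0 under DESeq2, limma, each other scaling and filter, the fit of all 12 rats, the replicate block, without Ndufa4, Ndufa4l2 and copies, with no fold limit, and with each rat left out in turn (0 to 0). Calls over all genes were few as well. The most were by DESeq2, with 102 higher and 68 lower of 23294 genes in BAIBA against HFE and 333 of 24604 genes across the 4 groups. A count of 0 members is near such shares and does not set the members apart from other genes. Taken at an unadjusted p under 0.05 the count of members was 14 for HFE against HF (13 without Ndufa1), where 1139 of all 14938 genes were under this limit. It was 12 for HFE against Sham, 11 higher and 1 lower (1656 of 14804 genes), and 10 for BAIBA against HFE (1420 of 14844 genes). It was 1 for BAIBA against HF (834 of 15039 genes) and 1 for BAIBA against Sham (1106 of 14920 genes). Across the 4 groups it was 4, or 8.7% of the members against 9.71% of all genes. The lowest adjusted p of a member in any of these fits was 0.0549, for Ndufa1 in HFE against HF by DESeq2. Counts at an unadjusted p were followed through the same fits as an addition made after the data were seen: with no rat left out they ranged from 2 to 14 for HFE against HF (8 in the fit of 12 rats, 7 with library-size scaling and 2 to 12 by limma), from 1 to 16 for HFE against Sham and from 0 to 15 for BAIBA against HFE, where the replicate block gave 15. With one rat left out they were 5 to 11, 3 to 27 and 4 to 15. Over all genes the counts moved too. They were 1018 to 1465, 1289 to 2132 and 1327 to 1784 (the last with the replicate block) with no rat left out. With one rat left out they were 864 to 1538, 1147 to 1784 and 997 to 1617 genes. The cause was not tested. With one rat left out the median log2 fold change was -0.05 to 0.06 for HF against Sham, 0.13 to 0.17 for HFE against HF, -0.11 to 0.02 for BAIBA against HF, -0.21 to -0.12 for BAIBA against HFE, -0.10 to 0.04 for BAIBA against Sham and 0.09 to 0.22 for HFE against Sham. Under every other setting it moved from the value reported by less than the spread between rats (0.0931), with 0.11 for HFE against HF and -0.13 for BAIBA against HFE under library-size scaling. Of 408 values of named genes under alternatives, 407 kept direction and side of the threshold, and Ndufa4l2 in BAIBA against HFE turned to -0.0057 without BAIBA rat 3 (-0.0057 to 0.1579 with one rat left out). The replicate block changed no call of a member. Scaled counts per kilobase gave the same 14.1-fold range of levels as FPKM. Ndufs6 (23 counts in all) and the second row of Ndufv3 (244 counts) had the fewest counts, which limits the precision of their values.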
